A study of Mus musculus with 15 samples.

Results

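The Hox genes encode homeodomain transcription factors that sit in 4 clusters, HoxA to HoxD, on chromosomes 6, 11, 15, and 2 of the mouse. Within a cluster the genes are numbered from 1 to 13, and genes with the same number in different clusters are called paralogues. In the embryo the genes with low numbers are switched on first and furthest forward, in the hindbrain, and genes with higher numbers begin progressively further back along the spinal cord, an order known as collinearity. The forebrain and midbrain normally lie in front of the domain of Hox expression, so that Hox transcripts in a brain sample are commonly read as a sign of hindbrain or spinal cord tissue. All protein-coding genes whose symbol is Hox followed by a cluster letter and a number were taken, which gave 39 genes in the annotation (11 in HoxA, 10 in HoxB, 9 in HoxC, and 9 in HoxD). Of these, 23 were read among the 19475 genes of the normalized count table (7, 7, 4, and 5 per cluster), and the other 16 were not analysed here.

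RNA-Seq was carried out on C57BL/6J brains collected at E16.5, a late stage of cortical neurogenesis. The 15 embryos were 5 WT, 5 carrying 1 mutant allele (Tbr1 +/K228E), and 5 carrying it on both chromosomes (Tbr1 K228E/K228E), and each genotype had 3 females and 2 males. TBR1 is a T-box transcription factor of early-born cortical neurons, and the K228E allele is a germline knock-in that exchanges a lysine for a glutamate in exon 1, made in a floxed line whose neomycin cassette had been removed with protamine-Cre. The embryos are called WT1 to WT5, HT1 to HT5 (heterozygous), and HM1 to HM5 (homozygous), with replicates 1 to 3 female and 4 and 5 male. The sample labels name the tissue as brain, the series text as whole brain, and the article as forebrain, and none of them says where the brains were cut from the spinal cord.

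Values are normalized read counts, that is, estimated reads per gene divided by a scaling factor for each embryo. They summed to between 30.5 and 31.8 M per embryo, and the spacing of the lowest values put 1 read at between 0.815 and 1.19, which corresponds to about 26.3 to 38.0 M reads, so that a value near 1 stands for a single read. Tbr1 itself ranged from 2097 to 4871 in WT, from 4738 to 8543 in Tbr1 +/K228E, and from 7148 to 16015 in Tbr1 K228E/K228E embryos, and every homozygote exceeded every WT embryo. Across genes, log2 values correlated with r from 0.971 to 0.989 between embryos that shared a genotype, and no columns were identical.

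The promoters of some members are shown because these genes varied together from embryo to embryo, as described further on. RefSeq promoters on GRCm38.p6, from 250 bases before to 50 bases after the start, were matched to 13 of the 23 genes and to 8 of the 14 genes tested. The 250 bases before the RefSeq start are printed, 5′ to 3′ on the strand of the gene, for the 5 tested genes in which this stretch holds no annotated exon: Hoxa2 (chr6:52164832-52165081, minus strand), Hoxb4 (chr11:96318017-96318266, plus strand), Hoxd4 (chr2:74721728-74721977, plus strand), Hoxa5 (chr6:52204588-52204837, minus strand), and Hoxb8 (chr11:96281655-96281904, plus strand). Capitals mark matches to the motifs searched on both strands, and a match on the reverse strand appears as its reverse complement.
Hoxa2: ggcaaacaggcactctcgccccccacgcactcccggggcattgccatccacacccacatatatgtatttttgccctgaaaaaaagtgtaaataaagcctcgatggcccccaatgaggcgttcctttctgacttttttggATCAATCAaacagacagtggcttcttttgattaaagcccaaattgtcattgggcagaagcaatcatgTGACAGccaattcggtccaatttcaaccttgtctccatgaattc
Hoxb4: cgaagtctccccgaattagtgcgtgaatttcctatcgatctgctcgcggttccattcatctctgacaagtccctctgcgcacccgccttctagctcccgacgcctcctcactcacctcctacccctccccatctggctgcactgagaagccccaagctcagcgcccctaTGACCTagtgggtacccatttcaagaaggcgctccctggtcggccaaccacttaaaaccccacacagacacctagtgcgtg
Hoxd4: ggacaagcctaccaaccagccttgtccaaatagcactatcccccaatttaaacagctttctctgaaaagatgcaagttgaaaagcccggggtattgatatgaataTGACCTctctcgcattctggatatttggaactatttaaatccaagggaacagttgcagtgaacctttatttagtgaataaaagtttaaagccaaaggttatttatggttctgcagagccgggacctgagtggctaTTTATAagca
Hoxa5: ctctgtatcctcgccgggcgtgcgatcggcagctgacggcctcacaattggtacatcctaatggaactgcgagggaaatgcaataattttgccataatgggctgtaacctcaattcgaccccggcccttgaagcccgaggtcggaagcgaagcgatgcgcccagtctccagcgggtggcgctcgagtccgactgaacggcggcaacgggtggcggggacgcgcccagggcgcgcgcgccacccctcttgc
Hoxb8: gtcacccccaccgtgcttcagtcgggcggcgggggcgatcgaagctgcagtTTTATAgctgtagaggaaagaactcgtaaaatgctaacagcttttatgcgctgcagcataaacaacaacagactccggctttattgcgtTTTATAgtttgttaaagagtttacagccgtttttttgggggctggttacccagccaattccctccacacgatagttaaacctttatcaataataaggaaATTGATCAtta
The motifs were TGATNNAT, a form bound by Hox proteins together with Pbx partners, TGACAG, a form bound by Meis proteins, AGGTCA, a half-site of retinoic acid receptors, and TATAAA, the TATA box. TGATNNAT occurred in 2 of the 8 promoters of tested Hox genes (25%), those of Hoxa2 and Hoxb8, and in 7.68% of all 32851 promoters read. AGGTCA occurred in 4 of 8 (50%), those of Hoxb4, Hoxd4, Hoxd3, and Hoxc4, and in 14.0% of all promoters. TGACAG occurred in 2 of 8, those of Hoxa2 and Hoxa3, and in 15.9% of all promoters. TATAAA occurred in 2 of 8, lying 10 bases before the start of Hoxd4 and 110 and 199 bases before that of Hoxb8, and in 12.4% of all promoters. The stretch of Hoxa5 held no match. No match overlapped another in these 8 promoters. With 8 promoters these shares are a description, and a match does not show that a protein binds.

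Hox transcripts were abundant in a few embryos and nearly absent from the rest, and each genotype held embryos of both kinds. The summed normalized read count of the 23 Hox genes was 1163, 405, 18.4, 3313, and 16.6 in WT1 to WT5. It was 4000.2, 10.7, 18.3, 22.5, and 18.0 in HT1 to HT5, and 582, 267, 12.2, 65.2, and 17.9 in HM1 to HM5. The highest and the lowest embryo of all 15, HT1 and HT2, were both heterozygous females. The 3 genotypes overlapped from 16.6 to 582, and above that lay 1 heterozygote and 2 WT embryos but no homozygote. WT embryos averaged 983 ± 1384 (SD, n = 5), with a median of 405. Heterozygotes averaged 814 ± 1781 (SD, n = 5), with a median of 18.3, and homozygotes averaged 189 ± 243 (SD, n = 5), with a median of 65.2. In each group the SD exceeded the mean. In bulk RNA, fewer cells of a kind and less RNA per cell cannot be told apart.

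**Figure D1:**
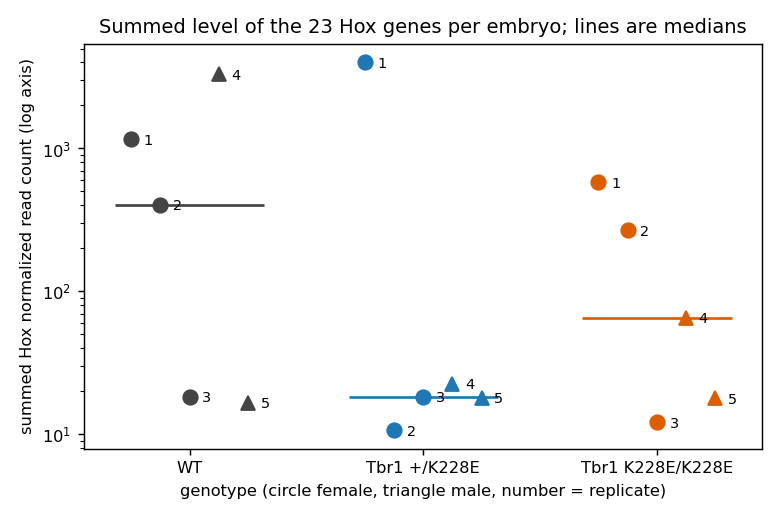
Summed normalized read count of the 23 Hox genes (log axis) in each embryo, by genotype, with circles for females, triangles for males, the replicate number beside each point, and a line at the median. Single embryos reach 3313 in WT and 4000.2 in Tbr1 +/K228E, while 8 of the 15 embryos lie between 10.7 and 22.5.

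At least 1 Hox gene reached a value of 10 in 7 of the 15 embryos, namely in 3 of 5 WT, 1 of 5 Tbr1 +/K228E, and 3 of 5 Tbr1 K228E/K228E embryos, and in 5 of 9 females and 2 of 6 males. In the other 8 embryos no Hox gene exceeded 7.45, the value of Hoxc9 in HT4. How far along the clusters the signal reached differed among these 7 embryos. A gene at 10 or more was found up to paralogue number 3 in HM4, up to 4 in WT2 and HM2, up to 5 in WT1 and HM1, up to 6 in WT4, and up to 8 in HT1. Counted by paralogue number, 7 embryos had a gene at 10 or more in groups 2 and 3, 6 in group 4, 4 in group 5, 2 in group 6, and 1 each in groups 7 and 8, and no embryo did in groups 9 and 13. Groups 9 and 13 were each represented by a single gene, Hoxc9 and Hoxd13, and no gene of groups 10 to 12 was analysed here.

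**Figure D2:**
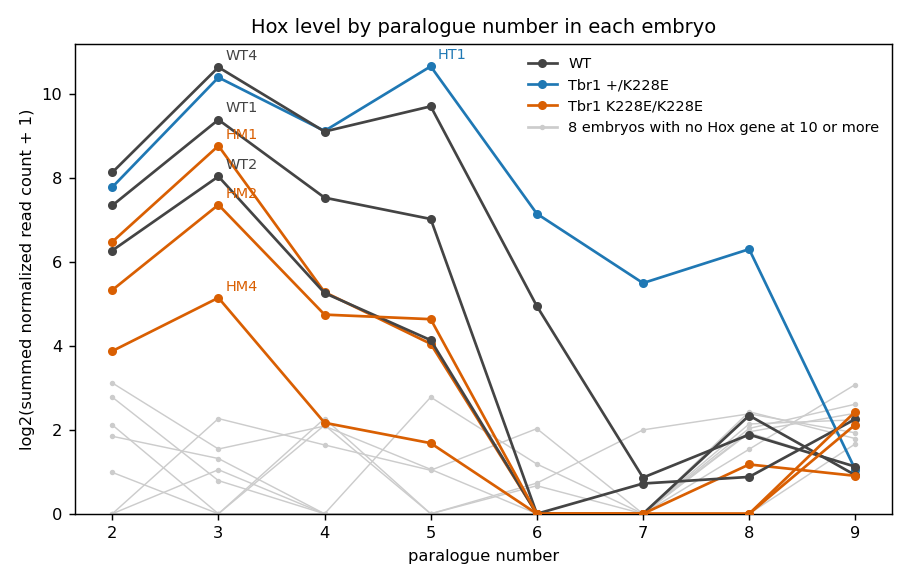
Log2(summed normalized read count + 1) of the Hox genes of each paralogue number from 2 to 9, with 1 line per embryo, coloured by genotype for the 7 embryos with a Hox gene at 10 or more and grey for the other 8. The lines of WT1, WT2, HM1, HM2, and HM4 fall to 0 at paralogue number 6, WT4 has a summed value of 29.8 there, and HT1 has 44.1 at number 7 and 77.9 at number 8.

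HT1 and WT4, the embryos with the most Hox signal, differed by paralogue number rather than by a common factor. The ratio of HT1 to WT4 was 0.783 for the summed genes of number 2, 0.845 for number 3, 1.01 for number 4, 1.94 for number 5, and 4.72 for number 6. Beyond that the value in WT4 was at the level of a few reads, with 0.818 against 44.1 in HT1 for number 7 and 2.70 against 77.9 for number 8. The step from number 4 to number 5 was seen in 2 clusters, with ratios of 1.02 and 1.95 for Hoxa4 and Hoxa5 and of 1.11 and 2.04 for Hoxb4 and Hoxb5, whereas in HoxC the ratios were 0.895 for Hoxc4 and 1.15 for Hoxc5. These are ratios of single embryos without replicates.

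The clusters contributed unequal shares of the signal, and among the embryos with the highest sums the share of HoxD had the widest range. In the 6 embryos with the highest sums, HoxB gave from 37.8% to 46.2% of the summed reads, HoxA from 26.5% to 37.5%, HoxD from 10.3% to 31.6%, and HoxC from 3.74% to 8.58%. HoxD was lowest in HM2 and HT1 and highest in HM1. Compared per kilobase of exon, so that genes of different length can be set side by side, the mean levels over the 15 embryos were 45.4 for Hoxa5, 32.3 for Hoxb3, 29.0 for Hoxb5, 24.8 for Hoxd3, 20.4 for Hoxa2, 19.5 for Hoxa4, and 14.4 for Hoxc4, and below 10 for each of the other 16 genes. These means rest largely on WT4 and HT1, where Hoxa5 reached its highest level of 421 per kilobase (in HT1).

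**Figure D3:**
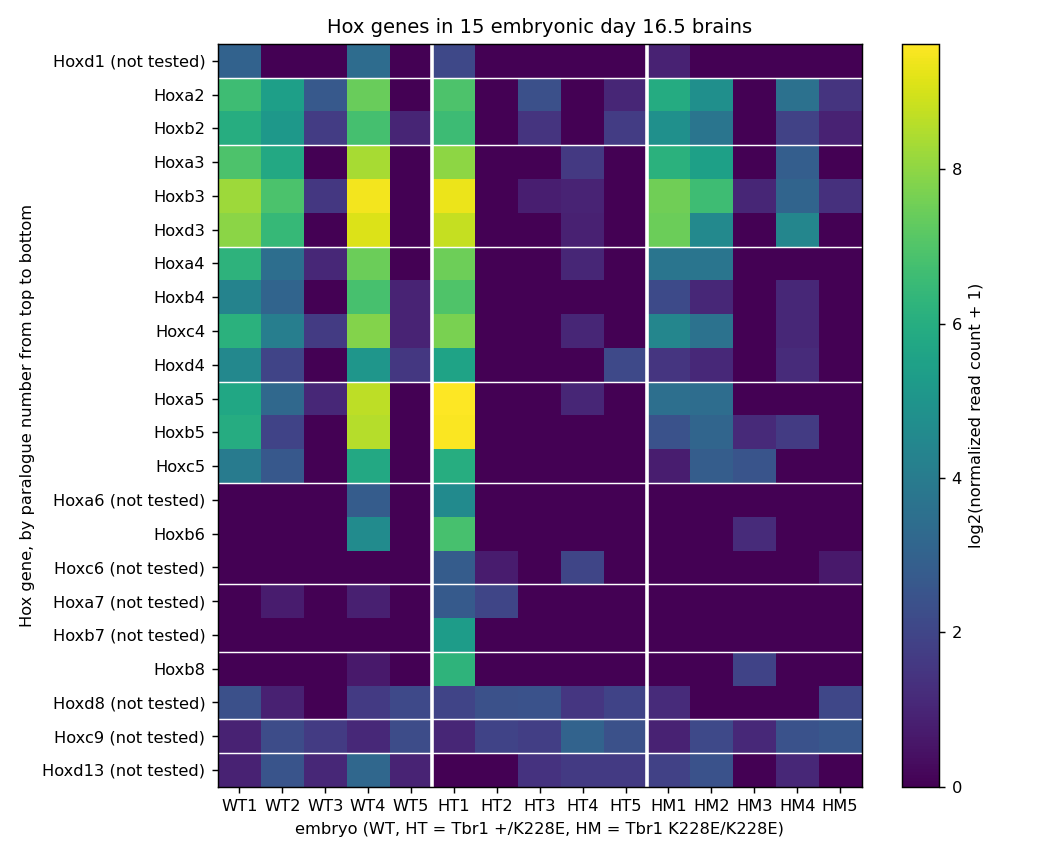
Log2(normalized read count + 1) of 22 of the Hox genes, ordered by paralogue number, in the 15 embryos, with white lines between genotypes and between paralogue numbers. The bright columns are WT1, WT2, WT4, HT1, HM1, and HM2, and in paralogue numbers 6 to 8 values of 10 or more are found in HT1 and, for Hoxb6, WT4.

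Genes of the anterior hindbrain came first. Hoxa2, whose expression reaches furthest forward of the family in the hindbrain (ENSMUSG00000014704, chromosome 6, 52162417 to 52164831, minus strand), read 99.0, 42.3, 5.40, 169, and 0 in WT1 to WT5, 122, 0, 4.11, 0, and 1.07 in HT1 to HT5, and 60.3, 26.9, 0, 10.9, and 1.70 in HM1 to HM5. Its level in HM4, 10.9, was above that in the embryos without a Hox signal, among which WT3 was highest. Hoxb2, which acts in the specification of facial motor neurons (ENSMUSG00000075588, chromosome 11, 96350525 to 96354012, plus strand), read 62.2, 33.9, 2.27, 109.7, and 0.981 in WT, 96.1, 0, 1.75, 0, and 2.27 in Tbr1 +/K228E, and 27.8, 12.3, 0, 2.74, and 0.896 in Tbr1 K228E/K228E embryos. The same 6 embryos were high for both genes. The antisense transcript Hoxb3os covers 27.3% of the exon bases of Hoxb2, and the library kit did not mark strand, so that reads from the 2 strands cannot be told apart there.

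Hoxd1, a gene at the 3′ end of HoxD, was low and exceeded 1 in 3 embryos, WT1, WT4, and HT1, and its highest value was 9.50.

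Paralogue number 3 gave the strongest signal in all 7 embryos but HT1, where number 5 exceeded it. Hoxb3, a gene of the caudal hindbrain (ENSMUSG00000048763, chromosome 11, 96323326 to 96347930, plus strand), read 297, 118, 1.91, 702, and 0 in WT, 643, 0, 0.729, 0.933, and 0 in Tbr1 +/K228E, and 186, 97.6, 1.07, 7.69, and 1.49 in Tbr1 K228E/K228E embryos. WT4 and HT1 stood close together, and WT1, HM1, WT2, and HM2 followed in that order. Hoxa3, which acts in the pharyngeal arches and the caudal hindbrain, had its highest values of 331 in WT4 and 255 in HT1, and Hoxd3 had 556 and 444 in the same embryos. In HM4 Hoxd3 read 20.2, Hoxb3 7.69, and Hoxa3 6.43. Hoxb3os covers 52.9% of the exon bases of Hoxb3. Hoxd3 shares 2225 exon bases with the gene model Gm28230 on the same strand, whose own value did not exceed 19.0 in any embryo.

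The genes of number 4, whose expression begins within the caudal hindbrain, were highest in the same 2 embryos, HT1 and WT4. Hoxc4 (ENSMUSG00000075394, chromosome 15, 103018934 to 103036852, plus strand) read 69.7, 16.4, 2.18, 229, and 0.945 in WT, 205, 0, 0, 1.06, and 0 in Tbr1 +/K228E, and 20.2, 11.2, 0, 1.10, and 0 in Tbr1 K228E/K228E embryos. Hoxb4, also known for expanding blood stem cells (ENSMUSG00000038692, chromosome 11, 96318267 to 96321638, plus strand), read 18.8, 7.59, 0, 112, and 0.935 in WT, 123, 0, 0, 0, and 0 in Tbr1 +/K228E, and 3.49, 1.11, 0, 1.09, and 0 in Tbr1 K228E/K228E embryos. WT4 and HT1 were thus far above WT1 for both genes, and the 4 other heterozygotes read 0 for Hoxb4. Hoxd4 (ENSMUSG00000101174, chromosome 2, 74711929 to 74729160, plus strand) read 21.6, 2.97, 0, 32.5, and 1.94 in WT, 46.6, 0, 0, 0, and 3.32 in Tbr1 +/K228E, and 1.82, 1.16, 0, 1.30, and 0 in Tbr1 K228E/K228E embryos. Hoxd4 shares 388 exon bases with Hoxd3 and 1154 with Gm28230, and the division of reads among the 3 models is an estimate. Hoxa4 had its highest values of 179.6 in HT1 and 176 in WT4.

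Genes of number 5, which mark the cervical spinal cord and the caudal medulla, were highest in HT1, WT4, and WT1, in that order. Hoxa5, which is required for the respiratory and phrenic motor system (ENSMUSG00000038253, chromosome 6, 52201754 to 52204587, minus strand), read 52.1, 8.55, 1.08, 406, and 0 in WT, 789.5, 0, 0, 1.05, and 0 in Tbr1 +/K228E, and 10.5, 9.91, 0, 0, and 0 in Tbr1 K228E/K228E embryos. HT1 was above WT4 here, the reverse of their order for Hoxa2 and Hoxb3. Hoxb5 read 759.7 in HT1, 373 in WT4, and 61.7 in WT1, and did not exceed 7.77 in any other embryo. Hoxc5 read 62.7, 54.4, and 15.1 in the same 3 embryos.

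Genes of numbers 6 to 8 belong to the lower cervical and thoracic spinal cord. Hoxb6 (ENSMUSG00000000690, chromosome 11, 96292476 to 96301569, plus strand) read 111 in HT1, 23.9 in WT4, 1.27 in HM3, and 0 in the other 12 embryos. Hoxb7 (ENSMUSG00000038721, chromosome 11, 96286623 to 96290162, plus strand) read 38.5 in HT1 and 0 in the other 14 embryos. Hoxb8, a gene with a role in dorsal spinal cord neurons and in grooming behavior (ENSMUSG00000056648, chromosome 11, 96281905 to 96285315, plus strand), read 75.0 in HT1, 2.80 in HM3, 0.564 in WT4, and 0 in the other 12. A single embryo therefore carried nearly all reads of Hoxb7 and Hoxb8. Hoxa6 followed the same course, with 23.5 in HT1 and 5.93 in WT4, while Hoxa7 and Hoxc6 did not exceed 5.62 and 5.99, both in HT1.

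A few members showed low values that did not follow this order. Hoxc9, a gene of the thoracic cord (ENSMUSG00000036139, chromosome 15, 102976439 to 102985099, plus strand), was above 0 in all 15 embryos and read 0.893, 3.77, 2.17, 1.18, and 3.72 in WT, 1.07, 2.80, 2.46, 7.45, and 4.26 in Tbr1 +/K228E, and 0.871, 3.36, 1.17, 4.40, and 5.10 in Tbr1 K228E/K228E embryos. Its 5 lowest values, all near 1 read, were those of HM1, WT1, HT1, HM3, and WT4, which include embryos with high and, in HM3, low levels of the other Hox genes. Hoxd13, a gene of the digits and the genital bud (ENSMUSG00000001819, chromosome 2, 74668310 to 74671599, plus strand), read 0.904, 4.69, 1.09, 8.34, and 0.958 in WT, 0, 0, 1.66, 2.10, and 2.12 in Tbr1 +/K228E, and 2.62, 4.42, 0, 1.09, and 0 in Tbr1 K228E/K228E embryos. Hoxd8 lay between 0 and 4.39. These values amount to a few reads each, and differences of this size were not detectable at this depth.

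The 14 Hox genes with a mean of at least 5 over the 15 embryos entered the tests. They were Hoxa2, Hoxa3, Hoxa4, Hoxa5, Hoxb2, Hoxb3, Hoxb4, Hoxb5, Hoxb6, Hoxb8, Hoxc4, Hoxc5, Hoxd3, and Hoxd4, and the other 9 members were described by their values alone. Hoxb6 and Hoxb8 passed this filter through HT1 and, for Hoxb6, WT4. Hoxd4 (mean 7.54) would also have fallen below it without HT1, where it read 46.6. Hoxb4 and Hoxc5 would have done so without both HT1 and WT4. On the log2(normalized read count + 1) scale, with genotype means subtracted, the 14 genes moved together over the 15 embryos, with a median pairwise r of 0.889 (0.461 to 0.992, 91 pairs) and a median of 0.951 among the 13 pairs of the same paralogue number. These r describe 15 embryos that share their libraries and depth. Correlation with the mean of the 14 genes, which each of them enters, was highest for Hoxc4 (r = 0.990) and Hoxa5 (0.987), and lowest for Hoxb8 (0.673). Among the genes outside that mean, r was 0.844 for Hoxd1, 0.833 for Hoxa6, 0.710 for Hoxb7, 0.614 for Hoxa7, and 0.483 for Hoxc6, whereas it was 0.250 for Hoxd13, 0.0829 for Hoxd8, and -0.60 for Hoxc9.

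Few genes varied as much between embryos. The SD within genotype on the log2 scale had a median of 2.82 (1.70 to 3.86) over the 14 Hox genes, beside 0.150 over all 16507 tested genes and 0.452 over the 4396 tested genes with a mean from 5 to that of Hoxb3. Hox genes made up 5 of the 20 tested genes with the largest SD, and Hoxd3, Hoxb3, and Hoxa3 stood 5th, 8th, and 11th. The share of variation that lay between genotypes had a median of 10.7% for the Hox genes. It was 8.68% over all tested genes and 10.1% over the 4396 genes of similar mean. Groups of 5 embryos give some such share even where genotype has no effect, and the share was not adjusted for this.

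To test whether heterozygous embryos differed from WT embryos, the genotypes were compared with limma across all 16507 genes. Most Hox genes were lower on average in Tbr1 +/K228E than in WT embryos, but the spread between embryos was larger than these differences and none passed the test. The median log2 fold change of the 14 genes was -1.79, and 12 of 14 were lower, beside a median of -0.0021 and 51.2% lower over all genes. The 14 genes rise and fall together in the same embryos, so that this count is not one of 14 separate cases. Hoxb2 had the smallest p, with a log2 fold change of -2.16 (standard error 1.39, 95% confidence interval -5.13 to 0.80; adjusted p = 0.999 by limma with Benjamini–Hochberg correction, exact permutation p = 0.246). Hoxc4 followed, with -2.40 (standard error 1.60, interval -5.81 to 1.00) and the same adjusted p of 0.999 by limma (exact permutation p = 0.230). None of the 14 Hox genes passed an adjusted p of 0.05 by limma, beside 0.0% of all genes (0 of 16507), and none had an unadjusted p under 0.05, beside 1.79% of all genes. The values depended on single embryos. Without HT1 all 14 Hox genes were lower in Tbr1 +/K228E embryos, the median was -3.36, and 12 of 14 had an unadjusted p under 0.05, beside 2.73% of all genes, but again none passed correction (smallest adjusted p = 0.998 by limma). HT1 was the highest heterozygote for all 14 genes, so that leaving it out lowers each heterozygous mean. The 12 genes vary together and are not independent cases. The median was -0.84 without WT4, and -2.50 and -2.70 without WT3 and WT5.

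In homozygous embryos, too, most Hox genes were lower than in WT without passing the test. The median log2 fold change of the 14 genes was -1.52, and 13 of 14 were lower, beside 51.3% of all genes, whose median was -0.0023. Here too the genes vary together and are not 14 separate cases. Hoxd4 had the smallest p, with -1.86 (standard error 1.10, interval -4.20 to 0.48; adjusted p = 1.00 by limma, exact permutation p = 0.103). Hoxb4 had -2.17 (standard error 1.39, interval -5.13 to 0.79; adjusted p = 1.00 by limma, exact permutation p = 0.167). Hoxb8 was the 1 gene of 14 with a positive value, 0.26. None of the 14 passed an adjusted p of 0.05 by limma, where 0.127% of all genes did (21 genes), and none had an unadjusted p under 0.05, beside 3.23% of all genes. The median was -0.49 without WT4, -0.94 without WT1, and -2.44 and -2.52 without WT3 and WT5.

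Between homozygous and heterozygous embryos the Hox genes showed no common direction. The median log2 fold change was -0.096, with 7 genes lower and 7 higher, beside 49.8% lower over all genes. In mean log2 value the genes of numbers 2 and 3 were higher in Tbr1 K228E/K228E embryos, up to 1.72 for Hoxb3. None of these differences passed the test. In mean normalized read count the same genes were all lower in Tbr1 K228E/K228E embryos, with 58.9 against 129 for Hoxb3. The direction thus depended on the scale. Hoxb6 had the smallest p, with -1.12 (standard error 1.24, interval -3.76 to 1.51; adjusted p = 0.996 by limma, exact permutation p = 1.0). Hoxb8 had -0.86 (standard error 1.00, interval -2.99 to 1.26; adjusted p = 0.996 by limma, exact permutation p = 1.0). Both values rest on HT1, through which these genes passed the filter, since the other 4 heterozygotes read 0, and both became positive without it. None of the 14 passed an adjusted p of 0.05 by limma, where 0.0788% of all genes did (13 genes), and none had an unadjusted p under 0.05, beside 3.3% of all genes. Without HT1 all 14 were higher in Tbr1 K228E/K228E embryos, with a median of 1.36. HT1 was the highest heterozygote for all 14, so that leaving it out lowers each heterozygous mean. The sign of the median also turned with a pseudocount of 0.1, to 0.81. All 3 comparisons share groups, and their values are therefore not independent.

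**Figure D4:**
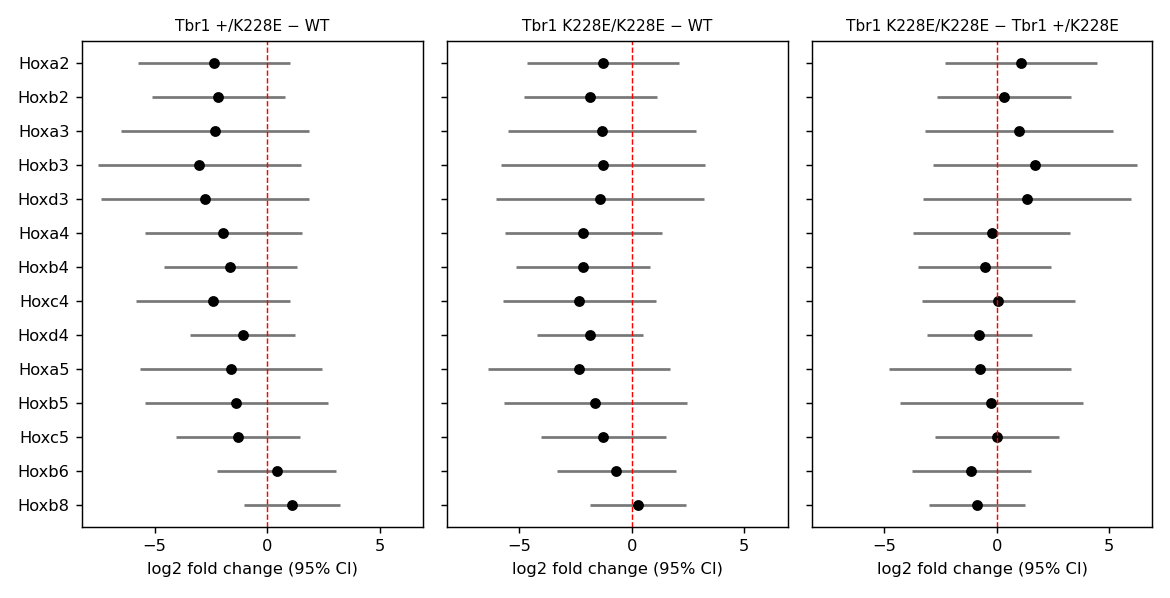
Log2 fold change (point) and its 95% confidence interval from limma (line) of the 14 tested Hox genes in the 3 comparisons, each with 5 embryos per genotype. All intervals include 0, and the widest are those of Hoxd3, from -7.40 to 1.85 in Tbr1 +/K228E against WT.

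The width of these intervals sets what the comparison could show. The standard errors of the 14 Hox genes lay between 1.00 and 2.17 on the log2 scale (median 1.59), beside a median of 0.0931 over all genes, and in all 3 comparisons the 95% intervals of all 14 genes held 0 and the embryos of the 2 genotypes overlapped. A p above the threshold does not show that the genotypes had equal Hox levels. Two-sided exact permutation tests of single genes, whose smallest possible p is 0.00794 with 5 against 5 embryos, gave smallest p of 0.230, 0.103, and 0.437 in the 3 comparisons.

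Markers of the brain regions were then set beside the Hox genes. Of the 27 markers listed for the hindbrain and spinal cord, 26 were measured, and their median correlation with the mean log2 Hox level was r = 0.561 over the 15 embryos, with genotype means subtracted, beside 0.015 over the 16493 tested genes that are not Hox genes. Of the 26, 7 had r above 0.7, and these included, by their mean level, Slc6a5, Slc18a3, Nkx6-1, Prrxl1, Lbx1, and Phox2a. Slc6a5, the glycine transporter of inhibitory neurons of the hindbrain and cord, read 470, 322, 58.8, 1236, and 20.0 in WT1 to WT5, 775, 0.926, 75.2, 65.4, and 63.5 in HT1 to HT5, and 319, 174, 2.29, 112, and 29.5 in HM1 to HM5. Lbx1, a factor of dorsal association neurons of the hindbrain and cord, read 136 in WT4 and 124 in HT1, between 21.0 and 59.8 in WT1, WT2, HM1, and HM2, and at most 10.3 in the others. These 2 genes were picked with their values in view. The embryos high in Hox genes were high in them as well.

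The 3 most abundant markers of that list, Isl1, Tal1, and Shox2, are also expressed in the forebrain, midbrain, or thalamus, and their r values were -0.39, 0.35, and 0.45. Summed over the whole list, the level was from 4445 to 10659 in WT, 2778 to 7780 in Tbr1 +/K228E, and 3505 to 9306 in Tbr1 K228E/K228E embryos. Of the 26 markers, 6 read 0 in at least 1 embryo, among them Phox2a, Lbx1, Isl2, Fev, and Dbh.

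Midbrain markers followed the Hox genes only loosely. Their median r was 0.319 over 15 genes, and the 3 most abundant were Otx2, En2, and Pax7. En2, a factor of the midbrain and the cerebellar primordium, read 760.3, 1287, 249, 1315, and 248 in WT, 572, 8.34, 793, 782, and 1179 in Tbr1 +/K228E, and 680.3, 1407, 63.9, 870, and 644 in Tbr1 K228E/K228E embryos. HT3, HT4, HT5, and HM5 thus had En2 levels in the range of the Hox-positive embryos while their summed Hox level was between 17.9 and 22.5, and HT2 and HM3 had little of either. Pax7, a marker of the dorsal midbrain, was likewise lowest in HT2 (2.58) and HM3 (89.7). The cerebellar list, with a median r of 0.418 over its tested genes, had 1 gene with r above 0.7, Pax2 (0.803), and its 3 most abundant genes Zic1, Foxp2, and Zic4 had -0.11, 0.26, and -0.32. The summed midbrain level was from 2356 to 6187 in WT, 1076 to 6156 in Tbr1 +/K228E, and 1715 to 8149.6 in Tbr1 K228E/K228E embryos.

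Forebrain markers ran the other way, with a median r of -0.53 over 17 genes. Neurod6, a factor of cortical projection neurons (r = -0.64), read 6974, 8271, 11093, 3502, and 7622 in WT, 6772, 11277, 7984, 8998, and 7066 in Tbr1 +/K228E, and 6606, 4248, 9348, 5784, and 6898 in Tbr1 K228E/K228E embryos. WT4, with a summed Hox level of 3313, had the lowest Neurod6, and HT2, with the lowest Hox level, had the highest. The relation was loose, since HT1, with the highest Hox level of 4000.2, read 6772, and HM2, with 267, read 4248. Bcl11b, another factor of cortical projection neurons, had r = -0.45, and both genes were well above 0 in every embryo. Tbr1 itself had r = -0.58 with genotype means subtracted (Spearman's rho = -0.45), and -0.34 without HT1 and WT4. The summed forebrain level was from 28918 to 60966 in WT, 40874 to 60093 in Tbr1 +/K228E, and 34479 to 61337 in Tbr1 K228E/K228E embryos. Whether the amount of hindbrain or cord in a sample bears on the Tbr1 comparison was not tested.

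**Figure D5:**
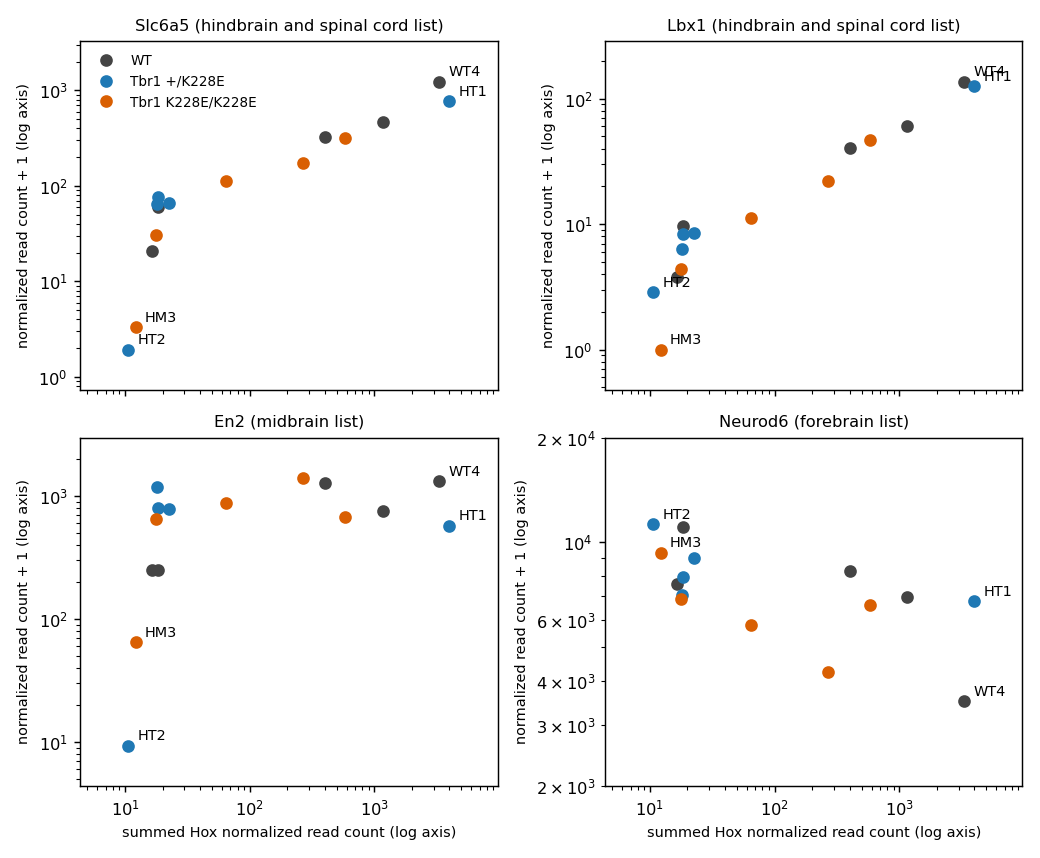
Normalized read count + 1 of Slc6a5, Lbx1, En2, and Neurod6 (log axes) against the summed Hox level (log axis) in the 15 embryos, coloured by genotype. Slc6a5 and Lbx1 rise with the Hox level, En2 is lowest in HT2 and HM3 and does not rise further among the embryos with more Hox signal, and Neurod6 is lowest in WT4.

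Markers of tissues that could be carried along with the cord or skull were also set beside the Hox genes. The median r was 0.494 for dorsal root and cranial ganglia, 0.460 for skeletal muscle, 0.342 for skin, 0.296 for meninges, 0.272 for choroid plexus, 0.215 for cartilage and bone, and 0.190 for erythroid cells. In the ganglia list, Prph, a neurofilament of peripheral and motor neurons, had r = 0.904, Runx1 had 0.772, and Pou4f1, a factor of sensory neurons, had 0.388. The summed ganglia level was from 1543 to 2776 in WT, 1155 to 2105 in Tbr1 +/K228E, and 1100 to 2381 in Tbr1 K228E/K228E embryos. The 3 most abundant meningeal markers, Igf2, Col3a1, and Col1a2, had r between 0.310 and 0.355, and the sum of their list ranged from 1633 to 45050.0 in WT. In cartilage Col2a1, Sox9, and Col9a1 had -0.22, 0.19, and 0.32, in muscle Actn2, Ttn, and Myh8 had 0.046, -0.093, and 0.52, and in skin Krt1, Krt10, and Lor had 0.65, 0.45, and 0.75. The globin genes Hbb-bs, Hba-a2, and Hba-a1 had 0.19, 0.26, and 0.25, and in the choroid plexus list Ttr, Otx2, and Clic6 had 0.20, 0.27, and 0.23. No member of any of the 15 lists passed an adjusted p of 0.05 by limma in any of the 3 comparisons. At most 2 members of a list had an unadjusted p under 0.05 in a comparison. Over all tested genes 0.0%, 0.127%, and 0.0788% passed the adjusted threshold in the 3 comparisons. An unadjusted p under 0.05 was found for 1.79%, 3.23%, and 3.3%. In lists this short, such counts do not set the markers apart from other genes. The part of these tissues in the Hox signal was not tested.

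Genes that act with Hox proteins or upstream of them were compared in the same way. The 9 cofactors of the TALE class, the Pbx, Meis, and Pknox genes, had a median r of 0.086. Among them Meis2 (mean 8968) had 0.30, and Pbx3 (3654) had 0.70. Meis1, chosen after its values were seen, had r = 0.877 and read 2064 in WT4 and 1515 in HT1, and between 454 and 1413 in the others. Of the 13 tested genes of retinoic acid signaling, which induces anterior Hox genes, 2 had r above 0.7, the retinoic acid binding protein gene Crabp1 (0.935) and the retinoic acid degrading enzyme gene Cyp26b1 (0.719), while the abundant receptor genes Rxrb and Rxra had -0.18 and 0.37. The Cdx genes, which induce posterior Hox genes in the early embryo, were represented by Cdx1 at a mean of 0.646. The 23 Polycomb and Trithorax genes, which hold Hox genes silent or active, had a median r of -0.46, and their most abundant members Kmt2a, Kmt2b, and Kdm6b had -0.67, -0.65, and -0.59. The 13 genes next to the clusters had a median r of 0.165. Cbx5, Calcoco1, and Lnpk, the most abundant, had -0.61, -0.55, and -0.016.

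The genes whose pattern over the 15 embryos was most like the mean Hox level, by Pearson's r with genotype means subtracted, were 5730596B20Rik (r = 0.989), Lamp5 (0.961), Penk (0.947), Vegfb (0.938), Slc5a7 (0.936), Crabp1 (0.935), Tlx1 (0.931), Nefh (0.923), Pla2g7 (0.914), and Nefm (0.913). The first of these lies in the HoxA cluster, where 292 of its exon bases are antisense to Hoxa3, and it read 71.4 in WT4, 67.2 in HT1, 31.8 in WT1, and 0 in 7 embryos. Lamp5, a membrane protein of neurons, read 502, 361, 84.9, 1103, and 64.2 in WT, 752, 23.1, 87.3, 27.8, and 48.9 in Tbr1 +/K228E, and 442, 262, 66.3, 116, and 72.4 in Tbr1 K228E/K228E embryos. Penk encodes proenkephalin, Slc5a7 the choline transporter of cholinergic neurons, and Nefh and Nefm the heavy and medium neurofilaments of large axons. Vegfb varied over a narrow range, from 719 in WT5 to 912 in WT4. Without HT1 and WT4, r remained between 0.816 and 0.986 for the 10 genes. In all, 437 of 16493 genes had r above 0.7, and 610 had r below -0.7.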

How the data were processed

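RNA-Seq was performed on brains of 15 embryos. Per the labels and the article, the authors extracted total RNA, made libraries with a TruSeq RNA kit that does not mark strand, estimated transcript abundance with Salmon 0.11.2 on GRCm38, summarized it per gene with tximport in R 3.5.3, and divided it by DESeq2 1.22.2 size factors; the values deposited by the authors are this normalized signal. Whole reads could not be recovered from it, so no count test was run, and columns of other samples numbered 0. How genes with low counts were filtered is not given in the sources used here.

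Ensembl identifiers were matched to GENCODE M21 (19469 of 19475 genes). The 16507 genes whose mean reached 5 were tested on log2(value + 1) with limma 3.58.1 in R 4.3.3, with 1 fit over all 3 genotypes and Benjamini–Hochberg adjustment over all tested genes; adding 1 understates the change of low genes. Single genes were also compared with two-sided exact permutation tests (scipy 1.17.1). Nothing states how embryos were spread over litters. On simulated data for Tbr1 K228E/K228E against WT, a log2 change of 1 was given to 200 of the 16507 genes, of which 156 were recovered, with 7 false calls. These genes were drawn at random from all tested genes, whose median SD was 0.150, beside 2.82 for the Hox genes. The recovery therefore does not carry over to the Hox genes. Correlations used genotype-centred log2 values of 15 embryos.

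Named were, for each paralogue number, the Hox gene of highest mean, for each comparison the 2 Hox genes of smallest p, for each list the 3 genes of highest mean, and the 10 genes most like the Hox mean; any other gene was picked with its values in view. A few genes named by this rule are not reported here. The members, the lists, and the value of 10 used to describe the reach of Hox signal were chosen with earlier results of these data known. Alternatives were other pseudocounts (0.1 and 10), no minimum mean or one of 50, quantile normalization, rescaling to the upper quartile, 2 genotypes alone, sex as a covariate, a replicate block, and leaving out each embryo.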

Additional observations from a re-analysis of the deposited data

Results flagged for a closer look

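Within the 5 embryos of a genotype, on the log2 scale, the distance of the farthest embryo to its nearest neighbour was divided by the range of the group. A value above 0.71 marked an embryo as far from the rest. Of 42 groups examined, 13 held such an embryo. For normally distributed values chance gives about 1 in 20, and Hox genes that move together are not independent cases. Where 4 of the 5 embryos read 0, any reads in the remaining embryo give a value of 1.0, so that this rate does not apply there. HT1 stood above the other heterozygotes in the summed Hox level (0.874) and in Hoxa5 (0.892), Hoxb2 (0.741), Hoxb3 (0.898), and Hoxc4 (0.864). Its value was 1.0 for Hoxb4, Hoxb6, Hoxb7, and Hoxb8, where the other 4 heterozygotes all read 0. WT4 stood above the other WT embryos in Hoxb6 (1.0) and Hoxb8 (1.0), but for Hoxb8 this is less than 1 read. HM3 did so among the homozygotes for Hoxb6 (1.0) and Hoxb8 (1.0), at values of 1.27 and 2.80, while its sum over all 23 Hox genes was 12.2.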

How the results depend on the processing

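No Hox gene passed an adjusted p of 0.05 by limma in any of the 3 comparisons under any of the 24 alternatives run for each. Leaving out 1 embryo at a time, the median log2 fold change of the tested Hox genes lay between -3.36 and -0.84 for Tbr1 +/K228E against WT, between -2.52 (without WT5) and -0.49 (without WT4) for Tbr1 K228E/K228E against WT, and between -0.50 and 1.36 for Tbr1 K228E/K228E against Tbr1 +/K228E. In the first of these the ends were those without HT1 and WT4, in the third those without HT2 or HT3 and without HT1. At most 12, 2, and 0 of 14 genes had an unadjusted p under 0.05, the first 2 without HT1, beside 2.73% and 3.17% of all genes. The Hox genes vary together, so that these counts are not of independent cases. In the order of the comparisons, the medians were -3.13, -1.48, and 0.81 with a pseudocount of 0.1, -0.66, -1.08, and -0.38 with 10, -2.31, -1.43, and 0.98 with a mean of at least 50, and -1.08, -1.27, and -0.23 with no minimum; the last 2 differ in the genes tested. Without HT1, Hoxb6 (0.24) and Hoxb8 (0.39) turned positive in Tbr1 K228E/K228E against Tbr1 +/K228E (their lowest values without 1 embryo were -1.47 and -1.25), since no heterozygote with reads of either gene remained. With a pseudocount of 10 the median SD between embryos was 1.56 in place of 2.82. The summed Hox level kept its order of embryos with rho from 0.968 to 0.996.

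Whether replicate numbers pair the embryos was not settled by correlations of same-numbered embryos. These exceeded 0.1 in 2 of 5 (WT and HT), 4 of 5 (WT and HM), and 2 of 5 (HT and HM) pairs. Their pooled r was 0.061, 0.272, and 0.012. In WT, HT, and HM, the summed Hox level was 1163, 4000.2, and 582 for replicate 1 and 18.4, 18.3, and 12.2 for replicate 3. It was 16.6, 18.0, and 17.9 for replicate 5. Replicates 2 (405, 10.7, and 267) and 4 (3313, 22.5, and 65.2) were less alike. With a replicate block 0 of 14 Hox genes passed in each comparison (limma, smallest adjusted p = 0.999, 1.0, and 0.95), and 3, 1, and 0 had an unadjusted p under 0.05, beside 2.36%, 3.65%, and 4.1% of all genes; over all genes the calls were 0, 16, and 2.

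Values near 1 rest on single reads, 16 Hox genes were not analysed here, and where the brains were cut is not given, so that dissection and litter cannot be told apart for single embryos.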

Other observations

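Each sample label ends in a number whose meaning the labels do not give. The 5 embryos with the lowest of these numbers, up to 14, had summed Hox levels of at least 267, and of the other 10 embryos 8 were under 25. Over the 15 embryos Spearman's rho between the number and the summed Hox level was -0.60, which is given as a description.

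The genes whose pattern ran most opposite to the Hox genes were led by Krit1 (r = -0.95), Btaf1 (-0.94), and Zfp760 (-0.92), again over 15 embryos with genotype means subtracted. Among the Polycomb genes, Suz12 (-0.84) and Ezh2 (-0.77), both core members of the complex that methylates histone H3, had r below -0.7. In the list of genes beside the clusters, Skap2 (0.774) and Hibadh (0.717), which lie beside HoxA, had r above 0.7, and Evx1 (0.650) and Evx2 (0.511), homeobox genes at the ends of HoxA and HoxD, followed. These genes were picked with their values in view.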
